A study of Williopsis jadinii with 8 samples.

Results

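The transcripts described here were those whose signal was lower in wild-type Candida utilis on xylose than on glucose, and lower again in the xylose-fermenting strain TMS174 on xylose. A design ID, the array's own name for a transcript, was a member when it was above background on all 8 arrays, at least 1.5-fold lower (0.585 or more on the log2 scale) in wild-type (WT) cells on xylose than on glucose, and at least 1.5-fold lower in TMS174 than in WT cells on xylose. In all, 125 of 8604 design IDs (1.45%) met the rule. The difference WT xylose minus WT glucose is called the xylose step, and TMS174 xylose minus WT xylose the strain step. The members were chosen by the mean signals of these 8 arrays in both steps, so their values in these steps are a description and not a test.

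Messenger RNA was measured on 1-colour Agilent arrays, in 2 cultures of TMS174 on xylose, 3 cultures of WT strain NBRC0988 on xylose and 3 cultures of NBRC0988 on glucose, each group made in independent experiments per the study's design text. Xylose cultures of both strains were taken at 24 h in medium with 50 g/L xylose. Glucose cultures were taken at 10.5 h in medium whose label states 20 g/L glucose, but whose name ends like the one that stands for 50 g/L in the case of xylose, so the amount is uncertain. All media held 20 g/L peptone and 10 g/L yeast extract, and all cultures were started from 3-day precultures on 20 g/L glucose at an optical density of 0.1, and were grown at 30 °C under gentle stirring. The labels call TMS174 xylose-fermenting and the title of the study calls the yeast recombinant, but neither gives its genotype, any introduced gene or the number of clones. There was no TMS174 culture on glucose, so the strain step was measured on xylose alone.

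C. utilis is a food yeast known for growing on pentoses such as xylose. In yeasts that use xylose, the sugar is reduced to xylitol, oxidised to xylulose and phosphorylated before it enters the pentose phosphate pathway. Glucose is taken up and phosphorylated directly, and in many yeasts its presence sets the level of transcripts for other carbon sources, growth and stress. Which of these functions the members serve could not be read here: the files do not pair design IDs with gene names, and 0 of 8604 design IDs matched the 6184 genes of the reference table, so members are given by design ID and no probe or promoter sequence is printed.

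Signal is log2 of the processed spot intensity over the 75th percentile of its array, averaged over the probes of a design ID, so that 0 is the 75th percentile and each unit is 2-fold. The 75th percentiles were 3554 and 3353 intensity units in TMS174, 3844 to 4130 in WT xylose and 2958 to 3179 in WT glucose, and each array had 87.8 to 95.2% of its probes well above background. Both TMS174 arrays lay on 1 slide and all 6 WT arrays on another, so in the strain step the slide and the strain cannot be told apart, and medium and culture time cannot be told apart in the xylose step. Equal amounts of RNA were labelled, so the RNA per cell was not measured, and a lower signal cannot be told apart from a rise of the other RNA. The signal of different probes depends on the probe as well as on the transcript, so levels order the members by brightness and not by abundance.

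Of the 7210 design IDs above background on all arrays, 1715 (23.8%) were at least 1.5-fold lower in WT xylose than in WT glucose. Of these, 125 (7.29%) were the members, 1381 (80.5%) lay within 1.5-fold of WT xylose in TMS174, and 208 (12.1%) were at least 1.5-fold above WT xylose in TMS174. The remaining one, cut01g0000155, met both thresholds only when spots that the scanner software marks as outliers were left out. Counted without regard to the xylose step, 8.03% of the 7210 design IDs were at least 1.5-fold lower in TMS174 than in WT xylose. A further fall in TMS174 was thus met by 7.29% of the xylose-lowered transcripts, against 8.03% of all transcripts on every array.

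**Figure D1:**
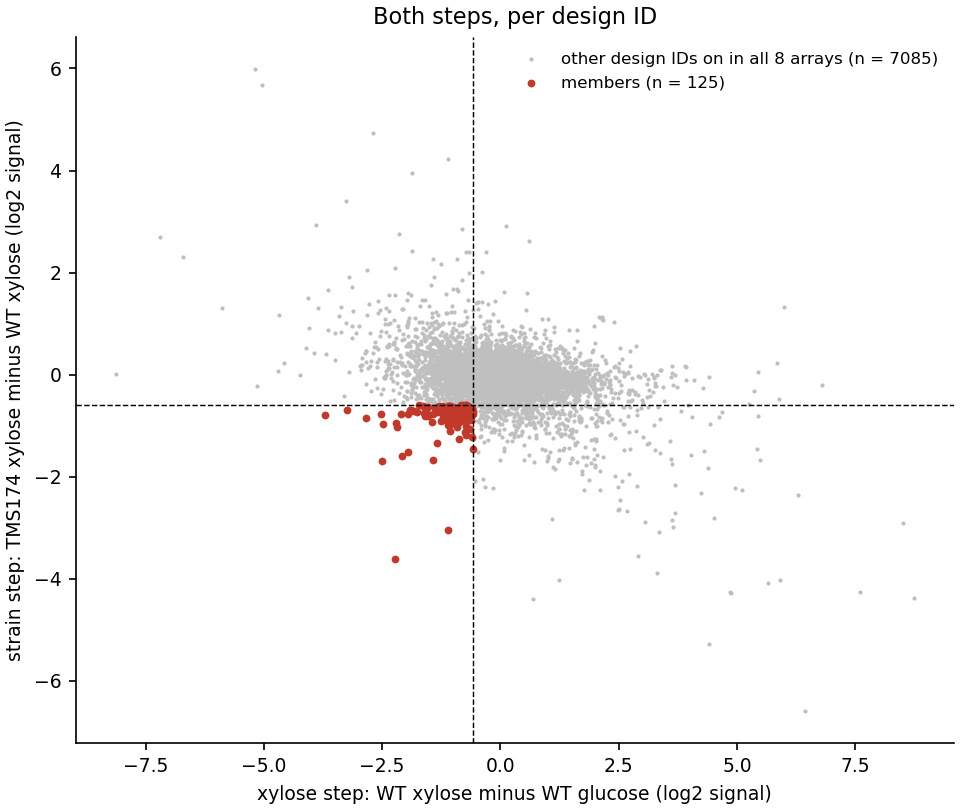
The strain step (vertical axis, TMS174 xylose minus WT xylose, log2 signal) is plotted against the xylose step (horizontal axis, WT xylose minus WT glucose, log2 signal) for 7210 design IDs above background on all 8 arrays, with dashed lines at the thresholds of the rule. The 125 members (red) fill the lower left corner by construction, most of them close to the threshold of the strain step and with a few below -1.5.

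The members lost more signal in the xylose step than in the strain step. Their median xylose step was -0.997 (quartiles -1.28 and -0.77, range -3.70 to -0.59), where the median of the 7210 was -0.03. Their median strain step was -0.75 (a 1.68-fold fall, quartiles -0.87 and -0.66, range -3.62 to -0.59), where that of the 7210 was -0.01. Between TMS174 and WT glucose the median difference was -1.77, a 3.42-fold lower signal, with a range of -5.85 to -1.27. The xylose step was the larger in 97 members and the strain step in 28. It was at least 2-fold in 62 members, while the strain step was at least 2-fold in 17 and both were in 9. The difference between TMS174 and WT glucose was at least 4-fold in 39 members and at least 8-fold in 13. Which step was the larger depended on the scaling. With scaling on the spike-in probes the order reversed, with member medians of -0.60 in the xylose step and -1.29 in the strain step. Both steps also had the same threshold, while the lower quartile of the 7210 was -0.55 in the xylose step and -0.205 in the strain step.

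No member lay above the 75th percentile of its array in TMS174, against 5 in WT xylose and 21 in WT glucose, as group means. The median member level was -4.67 in TMS174, -3.72 in WT xylose and -2.77 in WT glucose, where the 7210 had medians of -1.41, -1.37 and -1.44 in the same groups. The median member was therefore dimmer than the median transcript already on glucose, though the upper quartile of the members there was -0.81. On glucose 16.8% of the members lay at or above the 75th percentile, against 26.8% of the 7210. That the members lay further below the other transcripts in TMS174 follows from the rule.

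In limma, fitted to all 8 arrays over 7970 tested design IDs with Benjamini-Hochberg adjustment at 0.05, 117 of 125 members were called lower in the xylose step, where 34.1% of all tested design IDs were. In the strain step 73 of 125 were called lower, where 10.5% of all tested were, and 112 had an unadjusted p under 0.05, where 19.8% of all tested did. Between TMS174 and WT glucose 124 of 125 were called lower, where 33.1% of all tested were, and 71 members were called in both steps, where 2.52% of all tested were. The median standard error of the members was 0.17 in the xylose step and 0.19 in the strain step, against 0.11 and 0.13 over all tested design IDs. Nothing is read from these counts about the members, because the same contrasts selected them.

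Array by array, every TMS174 value lay below every WT xylose value for 122 of 125 members, where 33.8% of all tested design IDs had that order. Every WT xylose value lay below every WT glucose value for 117, where 35.8% did, and every TMS174 value below every WT glucose value for 124, where 39.7% did. All 3 groups stood apart in falling order in 115, where 8.63% did. The 3 members whose strains overlapped were cut01g0000728, cut01g0010481 and cut01g0040791, and in each of them WT xylose replicate 1 was the array below TMS174. In cut01g0000728 the signal was -1.84 and -2.05 in TMS174, -2.70, -1.13 and 0.16 in WT xylose, and 0.43, 1.48 and -0.28 in WT glucose. In cut01g0010481 it was -0.81 and -0.72 in TMS174, -0.92, 0.37 and 0.34 in WT xylose, and 1.82, 2.49 and 1.19 in WT glucose.

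The 125 members shared a pattern between replicates that the rule, which used group means, did not use. WT glucose replicate 2 had the lowest signal of its group in 99 of 124 members measured on all glucose arrays (79.8%), against 44.3% of the design IDs above background on all arrays, 56.8% of the 1381 and 47.1% of the 208. WT xylose replicate 2 had the lowest signal of its group in 101 of 125 members (80.8%), against 38.8%, 38.2% and 21.2% in the same 3 sets. TMS174 replicate 2 was below replicate 1 in 78 members (62.4%), against 49.1% of the 7210. Members thus tended to be low together on the same arrays.

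The size of that shift was smaller than either step. The median member lay -0.25 from its group mean on WT glucose replicate 2 and -0.17 on WT xylose replicate 2, where the 7210 had medians of -0.02 and -0.01. On WT xylose replicate 3 the median member lay 0.12 above its group mean. The median standard deviation of a member was 0.14 in TMS174, 0.22 in WT xylose and 0.25 in WT glucose, against 0.07, 0.10 and 0.14 over the 7210. With replicate 2 of both WT groups left out, a setting chosen after the pattern was seen, 157 design IDs met the rule, 115 of the 125 among them, and limma called 109 of the 125 lower in the strain step, where 16.1% of all tested design IDs were, and 117 in the xylose step, where 35.0% were. Leaving out 1 array at a time, the strain-step count ran from 13 to 99: it was 26 without WT xylose replicate 1, 25 without its replicate 3, 16 without TMS174 replicate 1 and 13 without its replicate 2, where 4.86, 4.37, 2.55 and 2.69% of all tested design IDs were called lower. It was 99 without WT glucose replicate 2, where 15.1% of all tested were.

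**Figure D2:**
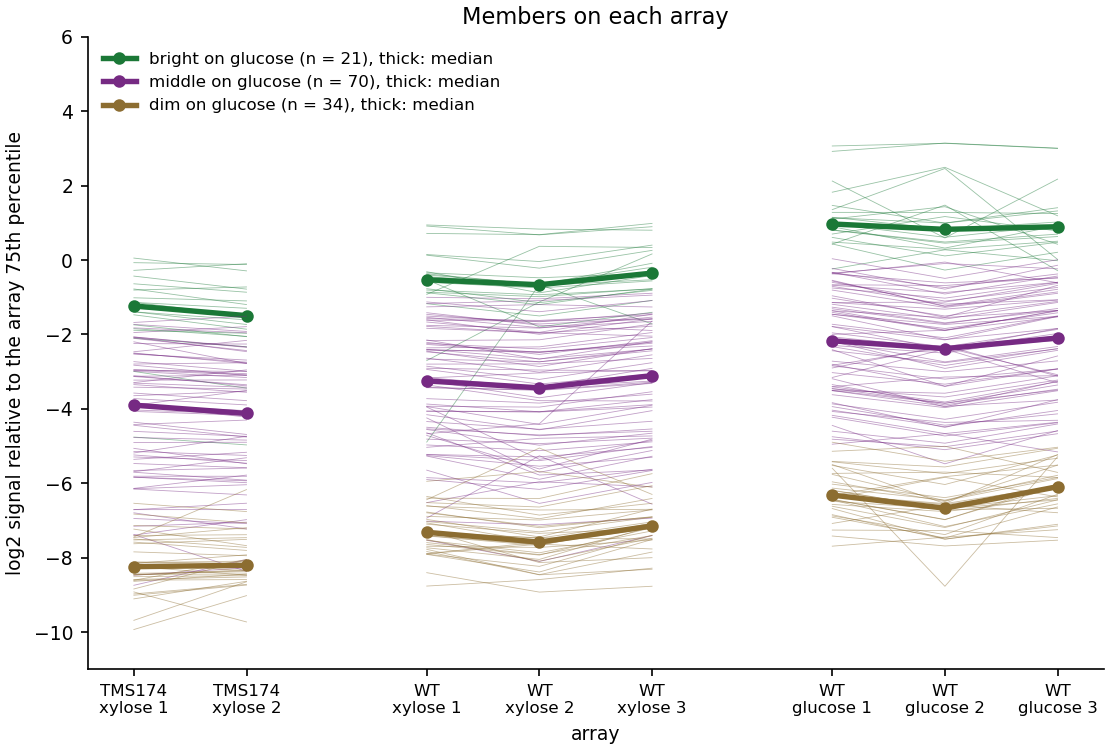
Each thin line is one member and each thick line the median of a brightness class, drawn over the arrays of a group (horizontal axis) against log2 signal relative to the 75th percentile of the array (vertical axis). TMS174 lies below WT xylose and WT xylose below WT glucose in every class, and replicate 2 dips within both WT groups, by a median of -0.17 in WT xylose and -0.25 in WT glucose over all members.

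The largest strain step belonged to cut01g0050753, which also had the largest difference between TMS174 and WT glucose. Its signal was -4.76 and -4.97 in TMS174, -0.53, -1.80 and -1.40 in WT xylose, and 1.10, 1.43 and 0.43 in WT glucose. The groups stood far apart, with a gap of several units between the lowest WT xylose array and the higher TMS174 array. The strain step was -3.62 ± 0.41 log2 units (SE), a 12.3-fold difference, and the xylose step -2.23 ± 0.37, a 4.69-fold difference. TMS174 was 57.6-fold below WT glucose. Both probes gave this picture: the brighter one read 171 and 147 intensity units in TMS174, against 3459, 1509 and 2100 in WT xylose and 8099, 10860 and 5062 in WT glucose.

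A member close to it in number, cut01g0050755, had the most equal steps of all. Its signal was -2.97 and -3.08 in TMS174, -1.42, -1.75 and -1.89 in WT xylose, and -0.37, -0.05 and -0.61 in WT glucose, with no overlap between groups. The xylose step was -1.34 ± 0.17 and the strain step -1.34 ± 0.19 (SE). The design ID between them, cut01g0050754, was not above background on every array and had a xylose step of -0.20 and a strain step of -1.19. Before them in number, cut01g0050751 had a xylose step of 2.42 ± 0.16 and a strain step of -1.25 ± 0.18 (SE, limma adjusted p = 2e-05 and 0.0064). The number between cut01g0050751 and cut01g0050753, cut01g0050752, had a strain step of 0.11 ± 0.10, so the lower signal in TMS174 did not run through all of these numbers. They were looked at after the values of the members were seen, and whether consecutive numbers stand for adjacent genes is not stated.

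The next largest strain step, in cut01g0010509, rested on dim spots. Its signal was -8.74 and -8.05 in TMS174, -4.64, -5.78 and -5.64 in WT xylose, and -4.07, -4.36 and -4.31 in WT glucose. The mean strain step was -3.04 ± 0.36 (SE) and the xylose step -1.11 ± 0.32. Its probes differed in the strain step by 1.38, more than those of any other member: one gave -3.73 and read 2.58 and 6.55 intensity units in TMS174, where it was not well above background, and the other gave -2.35 and read 26.9 and 24.6 units. The probe with the smaller step was well above background on all 8 arrays. After normexp correction, which models the background of each array and here adds an offset of 50 intensity units, the mean strain step was -0.86.

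The largest xylose step was that of cut01g0040791, with the widest spread among WT xylose cultures of any member. Its signal was -2.99 and -3.44 in TMS174, -4.89, -0.66 and -1.72 in WT xylose, and 1.36, 2.46 and 0.02 in WT glucose. TMS174 lay between the WT xylose cultures, and both lay below every glucose culture. The xylose step was -3.70 ± 1.10 (SE) and the strain step -0.80 ± 1.23, and without WT xylose replicate 2 the strain step was 0.09. The strain step of this member was smaller than its standard error and changed sign with 1 array.

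The other member with a xylose step beyond 3 units was cut01g0100008, read by 1 probe. Its signal was -8.47 and -8.27 in TMS174, -7.53, -8.10 and -7.40 in WT xylose, and -4.22, -4.73 and -4.37 in WT glucose. The xylose step of -3.24 ± 0.21 (SE, 9.42-fold) was clear of the spread between cultures, while the strain step was -0.69 ± 0.23. Its spot read 10.0 and 10.9 intensity units in TMS174, 20.9, 14.5 and 24.4 in WT xylose, and 160, 120 and 143 in WT glucose. The strain step was thus a difference between spots of about 10 and about 20 units, and it was 0.05 after normexp background correction.

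The brightest members on glucose were cut01g0050543 and cut01g7460001, and their profiles were nearly the same. In cut01g0050543 the signal was -0.07 and -0.12 in TMS174, 0.94, 0.83 and 0.80 in WT xylose, and 3.07, 3.14 and 3.00 in WT glucose. In cut01g7460001 it was -0.28 and -0.10 in TMS174, 0.91, 0.68 and 0.90 in WT xylose, and 2.92, 3.14 and 3.01 in WT glucose. Cultures of a group agreed closely in both and no groups overlapped. The xylose steps were -2.21 ± 0.07 and -2.19 ± 0.10 and the strain steps -0.96 ± 0.08 and -1.02 ± 0.11 (SE), so that TMS174 was 8.96-fold and 9.26-fold below WT glucose.

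Their profiles correlated at r = 0.997 over the 8 arrays. With the mean of each profile subtracted, they differed by a root mean square of 0.10 log2 units. Among the 78 pairs of the members with at least 8-fold difference between TMS174 and WT glucose, this was the smallest difference. The next, also with the means subtracted, was between cut01g0010346 and cut01g8760001 (0.13 log2 units, r = 0.998 over 8 arrays). In cut01g0010346 the signal was -6.15 and -6.31 in TMS174, -3.95, -5.36 and -4.85 in WT xylose, and -2.90, -2.30 and -3.12 in WT glucose. In cut01g8760001 it was -6.71 and -6.53 in TMS174, -4.24, -5.70 and -5.12 in WT xylose, and -3.16, -2.39 and -3.30 in WT glucose. Even the spread between WT cultures was alike in this pair. No probe sequence was at hand here, so whether such pairs share sequence was not tested. Such correlations compare arrays that share their group differences, and are given as a description only.

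**Figure D3:**
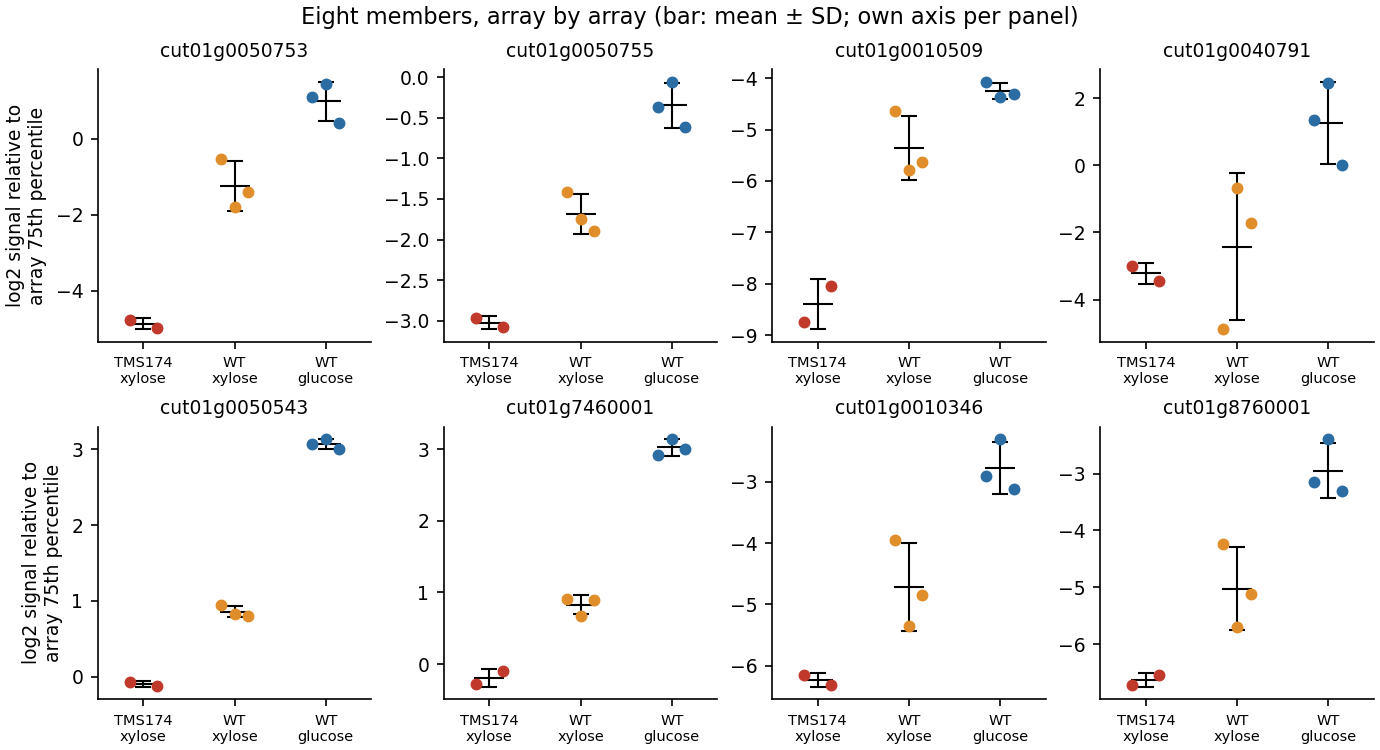
Log2 signal relative to the 75th percentile of the array (vertical axis, its own range in each panel) is shown for 8 members on every array of TMS174 xylose, WT xylose and WT glucose (points), with the mean and SD of each group (bars; n = 2, 3 and 3). The groups stand apart in each panel except that of cut01g0040791, where the TMS174 points lie within the range of WT xylose.

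Of the members with the most equal steps, cut01g0070059 was the other. Its signal was -4.90 and -4.90 in TMS174, -4.16, -4.56 and -4.05 in WT xylose, and -3.45, -3.85 and -3.49 in WT glucose. The xylose step was -0.66 ± 0.16 and the strain step -0.65 ± 0.18 (SE). Replicate 2 was the lowest array of both WT groups, as in most members.

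Consecutive design numbers were held by 4 pairs, with 8 of the 125 members, and a further 4 pairs were separated by a single number. Whether these counts are more or fewer than a random draw of design IDs would give was not tested. In the pair cut01g0050046 and cut01g0050047 the xylose steps were -0.87 ± 0.12 and -1.13 ± 0.17, and the strain steps -0.72 ± 0.13 and -0.89 ± 0.19 (SE). In cut01g0020069 and cut01g0020070 the xylose steps were -1.27 ± 0.18 and -2.10 ± 0.19, and the strain steps -0.91 ± 0.20 and -0.77 ± 0.21. That both design IDs of a pair fell in both steps follows from the rule. In cut01g0020069 and cut01g0020070 the order of sizes differed between the steps.

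The 3 numbers after cut01g0020070 had the opposite xylose step. In cut01g0020071, cut01g0020072 and cut01g0020073 the xylose step was 2.24, 2.05 and 2.14 (limma adjusted p = 3.7e-05, 3e-06 and 1.1e-05), and the strain step -0.72, -0.92 and -0.94 (limma adjusted p = 0.041, 0.0015 and 0.0062). In the pair cut01g0010434 and cut01g0010435 the xylose steps were -0.81 and -0.72 and the strain steps -0.77 and -0.62. In cut01g0030717 and cut01g0030718 they were -1.03 and -0.89, and -0.77 and -0.66. For cut01g0030718 the only spot on WT glucose replicate 2 was marked as an outlier, reading 303.5 intensity units where the other glucose arrays read 45.8 and 43.2, and it was left out of the fit.

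By the prefix of the design IDs, the members were spread out. The 8 largest prefixes held 118 members, which made up 1.47 to 2.54% of the design IDs above background on all arrays in each, against 1.73% of all 7210. The 342 other prefixes held 7 members among 575 such design IDs.

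Most members were read by probes that went the same way. Of the 125, 108 had 2 probes and 17 had 1. Both probes were lower in the xylose step in 107 of 108 members and in the strain step in 108 of 108, and both passed both thresholds on their own in 78. The rule required a fall in the mean of the probes, so it favoured members whose probes both fell. This agreement in direction is therefore a description and not a test of the probes. The median gap between the probes of a member was 0.08 in the xylose step and 0.10 in the strain step. The exception was cut01g0000406, whose probes gave xylose steps of 0.43 and -1.60 and strain steps of -1.07 and -0.37, so that its membership is a mean of disagreeing probes. The probe with the positive xylose step was above background on all 8 arrays and the other on 7.

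The members differed widely in brightness. By their mean on WT glucose, 21 members were at or above the 75th percentile of the array (bright), 70 lay below it by up to 5 log2 units (middle) and 34 by more (dim). Dim design IDs made up 27.2% of the members, against 13.5% of the 1381, 15.4% of the 208 and 16.5% of the 7210. The 34 dim members had a median spot intensity of 10.2 units in TMS174, 23.5 in WT xylose and 36.4 in WT glucose, and 85.1, 94.7 and 98.8% of their spots were well above background in the same groups. The 21 bright members had median intensities of 1410, 2940 and 6820 units.

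At the main scaling the strain step had medians of -0.78 in bright, -0.72 in middle and -0.76 in dim members. The xylose step had medians of -1.43, -0.92 and -0.86 in the same classes. The rule kept only strain steps of at least 1.5-fold in every class, and most members lay close to that threshold. The closeness of the strain-step medians therefore cannot show whether this step depended on brightness. Limma called 15 of 21 bright, 44 of 70 middle and 14 of 34 dim members lower in the strain step, where 10.5% of all tested design IDs were. After normexp correction the strain step was still at least 1.5-fold in 20 of 21 bright and 29 of 70 middle members, and in 0 of 34 dim ones, whose median became -0.07. The offset shrinks differences between dim spots by construction, so this correction does not show whether the strain step of the dim members was smaller. The bright members kept a median strain step of -0.74 and a xylose step of -1.42 under this correction.

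**Figure D4:**
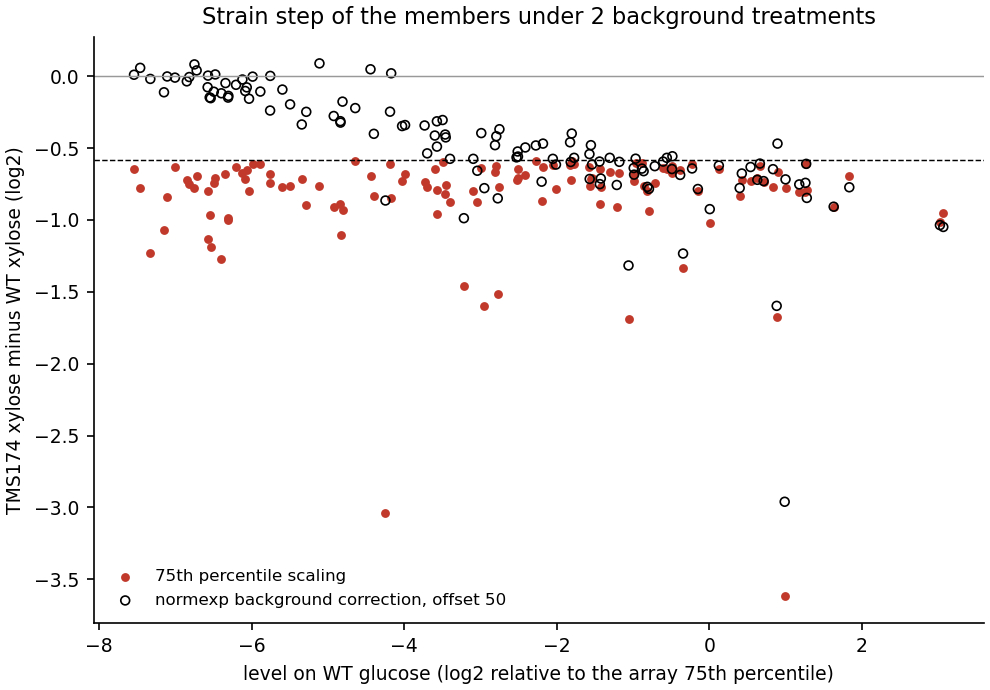
The strain step (vertical axis, TMS174 xylose minus WT xylose, log2) is plotted against the level on WT glucose (horizontal axis, log2 relative to the 75th percentile of the array) for the 125 members, with scaling alone (red) and with normexp background correction (open circles); the dashed line is the threshold of the rule. The open circles rise towards 0 at the left, where the 34 dim members have a median of -0.07, and lie close to the red points at the right, where the 21 bright ones have a median of -0.74.

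Another scaling moved all transcripts at once and with them the edge of the membership. Scaling on the 6 spike-in probes shifted the median of all tested design IDs by 0.40 in the xylose step and by -0.54 in the strain step, to 0.42 and -0.58. Relative to the median of all tested design IDs the members' median was -1.02 in the xylose step and -0.71 in the strain step under the 75th percentile, the array median and the spike-ins alike, since these settings add 1 number per array. With spike-in scaling 273 design IDs met the rule, which included 64 of the 125, and 98.0% of all strain-step calls were lower, against 58.8% at the main scaling. Each signed value above is thus relative to the bulk of the transcripts on the array.

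At the edge of the rule, values on either side differed by a few hundredths. Just inside the xylose threshold lay cut01g0020853 and cut01g0000406, at -0.586 and -0.587, and just outside it cut01g0031082 and cut01g0000567, at -0.578 and -0.568. Just inside the strain threshold lay cut01g0040781 and cut01g0060371, at -0.590 and -0.593, and just outside it cut01g0010451 and cut01g0000166, at -0.582 and -0.575. In 45 members the strain step was smaller than 0.70 in size.

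Membership of single transcripts depended on single cultures. Leaving out each array in turn gave 101 to 139 design IDs that met the rule. Of the 125 members, 58 met it in all 8 such settings, while 24 dropped out in 1 of them, 20 in 2, 17 in 3 and 6 in 4. Those lost most often included cut01g0000406 and cut01g0020687, each with 4 arrays. In cut01g0030840, a dim member with 1 probe, WT glucose replicate 2 lay at -8.77 where the other glucose cultures lay at -5.60 and -5.29, below both TMS174 values of -8.58 and -8.52, and it was the single member not called between TMS174 and WT glucose.

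**Figure D5:**
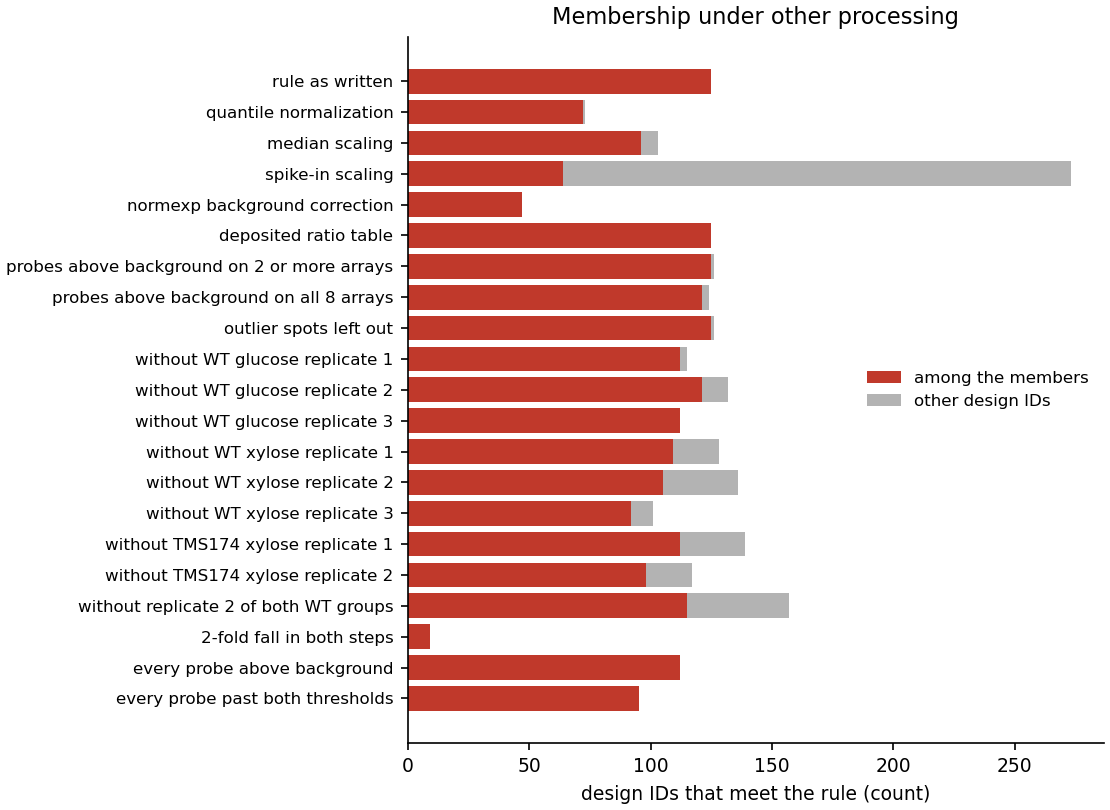
Bars count the design IDs that met the rule under each setting (horizontal axis, count; settings run down the page), split into those among the 125 members (red) and others (grey). Normexp correction leaves 47 and a 2-fold threshold in both steps 9, all of them members, while spike-in scaling gives 273, of which 64 are members.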

How the data were processed

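RNA of 2 TMS174 xylose, 3 WT xylose and 3 WT glucose cultures was labelled with Cy3 and scanned and extracted by Agilent Feature Extraction, version 9.5.3.1 per the file headers. Each deposited scanner file holds a background-subtracted processed signal intensity, per its header, for each of 15744 spots, with flags for outliers and for signals well above background. A deposited value table holds, as its values show, the ratio of that intensity to 1 number per array, on a linear scale and not centred; its column medians were 0.299 and 0.299 (TMS174), 0.317, 0.307 and 0.316 (WT xylose) and 0.300, 0.293 and 0.291 (WT glucose), and the authors' choice of number is not given in these sources. Used in place of the scanner files, it gave the same 125 members.

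From the intensity, log2 of signal over the 75th percentile of the 15208 non-control probes was averaged over the probes of each of 8604 design IDs (6604 with 2 probes, 2000 with 1). The rule for members kept the outlier spots, and the fit left them out (0 to 10 per array). Group means of all 8 arrays were fitted with limma 3.58.1 in R 4.3.3, with 5 residual degrees of freedom before moderation, two-sided, Benjamini-Hochberg adjusted over the 7970 design IDs with a probe well above background on at least 2 arrays. The script was tested on simulated data. No spot was saturated. Precision is limited by having 2 or 3 arrays a group.

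The members and lists were chosen with earlier results of these data known. Named members were the 2 at the top of each category (size of each step, total, level on glucose, equality of steps, gap between probes, loss when an array was left out), those beside each threshold, and consecutive numbers, of which all 4 tied pairs were kept. The members with overlapping groups, the similar profiles, cut01g0030840, the neighbours of members, the brightness classes and the pattern of replicate 2 were chosen after the values were seen. Lists of named genes could not be applied, since the design IDs have no gene names. Alternatives were other scalings, normexp correction, probe filters, array weights, a replicate block and leaving out arrays.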

Additional observations from a re-analysis of the deposited data

How the results depend on the processing

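The count of 125 members became 73 with quantile normalization (72 of them shared), 47 with normexp correction (47 shared), 273 with spike-in scaling and 9 with 2-fold thresholds, and 101 to 139 when single arrays were left out. Of the 125, 67 were called in the xylose step by limma with spike-in scaling, in place of 117, where 14.5% of all tested design IDs were called lower in place of 34.1%, and the median xylose step, -0.997, became -0.60 with spike-in scaling and -0.82 with normexp. In the strain step 73 were called, against 122 with spike-in scaling and 113 with array weights, where 53.2 and 20.2% of all tested design IDs were called lower in place of 10.5%, and 13 to 99 when single arrays were left out: leaving out replicate 1 or 3 of WT xylose gave 26 or 25, and leaving out replicate 1 or 2 of TMS174 gave 16 or 13, the lone TMS174 array being assumed to vary like the other groups. The cause was not tested. The median strain step, -0.75, became -0.62 with quantile normalization, -1.29 with spike-in scaling and -0.50 with normexp. The median between TMS174 and WT glucose, -1.77, became -1.91 with spike-in scaling and -1.35 with normexp. Between the strains, 58.8% of all calls were lower at the main scaling, 42.3% with quantile normalization, 47.0% with median scaling and 43.0% with normexp, and between the media in WT, 49.4% were lower at the main scaling, 23.7% with spike-in scaling and 62.1% with normexp. The median of all tested design IDs shifted by -0.18 in the xylose step with normexp, and by -0.14 between TMS174 and WT glucose with spike-in scaling.

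Single members reversed in 4 cases: cut01g0000406 had a xylose step of 0.43 (limma adjusted p = 0.043) when probes had to be above background on all 8 arrays, where 1 of its disagreeing probes remained; cut01g0040791 had a strain step of 0.086 without WT xylose replicate 2 (limma adjusted p = 0.97; -2.03 without replicate 1) and without replicate 2 of both WT groups (limma adjusted p = 0.96); and cut01g0100008 had a strain step of 0.048 with normexp (limma adjusted p = 0.87). The cause was not tested for the last 3. Over the 21 named members and 22 alternatives, the side of the 0.05 threshold was held in 434 of the xylose-step values, a call was lost in 25 and gained in 2, and in the strain step it was held in 375, a call was lost in 59 and gained in 25; between TMS174 and WT glucose it was held in 454 and lost in 8.

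Whether the replicate numbers of the labels pair the cultures could not be settled from these values. Deviations from the group means of same-numbered WT xylose and WT glucose cultures correlated at 0.02, 0.17 and 0.07 over all tested design IDs. Between differently numbered ones the correlations ran from -0.21 to 0.13. Over the members the same-numbered correlations were 0.07, 0.29 and -0.05, and the others ran from -0.316 to 0.285. With a replicate block 118 members were called lower in the xylose step, where 33.6% of all tested design IDs were. In the strain step 58 were (median -0.68), where 6.02% of all tested were. Between TMS174 and WT glucose 122 were, where 30.1% of all tested were. Over all tested design IDs the block moved the strain-step calls, lower and higher together, to 759, in place of 1417.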
